A study of Mus musculus with 10 samples.

Results

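Long intergenic noncoding RNAs (lincRNAs) are transcripts made from their own genes, spliced and polyadenylated like messenger RNAs in most cases, that lie between protein-coding genes and are not translated into a known protein. The 75 lincRNAs described here were the rows that the deposited count table of 15883 genes marks as lincRNA and that gathered at least 200 counts over the 10 libraries. H19 and Meg3 were left out of them, and 126 further lincRNA rows fell below that sum. Just outside the minimum lay Gm1976 with 199 counts, and just inside it Gm6313 with 212 counts.

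The libraries were made from the biceps femoris muscle of male mice of strain C57BL/6J, 5 weeks old, kept on normal chow and then fasted for 16 hours. There were 5 libraries of Zfp407 transgenic mice and 5 of wild-type mice, and the fast was shared by both groups. Zfp407 encodes a zinc finger protein of the nucleus, and the series asks what its overexpression changes in muscle. The sources used here name neither the promoter of the transgene nor the cells it is active in, and the columns name the group of a library but not the mouse. Libraries are therefore called by group and column number, and p-values measure the spread between these libraries. Levels are given in CPM, the counts of a gene scaled to a fixed total per library after TMM adjustment, and a fold change is transgenic over wild type.

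The transgene was visible in its own gene, with Zfp407 at 489 ± 124 CPM in transgenic libraries and 22.9 ± 1.73 CPM in wild-type libraries (SD, n = 5 each). Total counts ran from 15162400 to 19047834 in transgenic libraries and from 13530367 to 17814900 in wild-type libraries. A list of 10 skeletal muscle genes summed to between 80881 and 123467 CPM in transgenic libraries and between 88833 and 120040 CPM in wild-type libraries, so both groups hold muscle RNA. Transcripts of some other cells moved with the group, those of hepatocytes above all. Of 29 hepatocyte markers 26 were higher in transgenic libraries, where 4.28% of all genes were. Their summed level was 633 to 6675 CPM against 224 to 459 CPM in wild type. Of 12 leukocyte markers tested 3 were higher, namely Cd74, H2-Aa and H2-Ab1. Csf1r, Lyz2, Cd68 and Adgre1 were among those that did not pass. The summed leukocyte level was 191 to 458 CPM in transgenic libraries and 144 to 256 CPM in wild type. Of 4 satellite cell markers 3 were higher, while Myod1 was lower on average without passing (-0.38 ± 0.28 on the log2 scale, SE). The summed satellite cell level was 17.4 to 22.9 CPM in transgenic libraries and 7.65 to 10.9 CPM in wild type. None of 5 adipocyte markers passed, with a summed level of 1738 to 2590 CPM in transgenic libraries and 1644 to 3179 CPM in wild type. Most of that sum was Car3, at 1625 to 2038 CPM in transgenic libraries and 1314 to 3029 CPM in wild type. Adipoq varied more, from 10.1 to 77.2 CPM in transgenic libraries and from 11.2 to 104.6 CPM in wild type. No marker of these lists was at 0 in every library. In bulk muscle, fewer cells of a type and less RNA per cell cannot be told apart. The part of these transcripts in the lincRNA results was not tested. A fit with the hepatocyte markers as a covariate is given below. Their mean log2 CPM was 3.26 to 6.71 in transgenic and 1.57 to 2.44 in wild-type libraries. The groups do not overlap in it, so that fit cannot tell the markers from the genotype. In it the median standard error of the lincRNAs on the log2 scale was 0.38, against 0.23 without the covariate.

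LincRNAs act in several ways. Some stay in the nucleus and hold protein bodies together, as Neat1 does for paraspeckles, some give rise to small RNAs cut from their exons or introns, and some matter mainly through transcription across an enhancer or a neighbouring promoter. Many are made in few tissues, and several genes first listed as lincRNAs were later found to encode short proteins. In mouse muscle, 2310065F04Rik, which RefSeq also lists as linc-Myh, starts within the cluster of fast myosin heavy chain genes, and in mouse it has been described as an RNA of fast fibres that restrains slow-fibre genes.

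The annotation bears the label lincRNA only in part. Of the 75 genes, 72 were found by gene ID in GENCODE release M21 on GRCm38. It calls 64 of them lincRNA, 3 antisense, 2 bidirectional promoter RNAs and 1 a processed transcript. It calls 1 a transcribed pseudogene and 1, 5430416O09Rik (now Spaar), protein-coding. Gm15676, Gm14290 and A830039N20Rik are not in that release. Their merged exons span from 326 to 20771 bases with a median of 2789.5 bases, and 9 genes are a single exon block. Another gene of the table overlaps 15 of the 72, on exons in 9 cases. The sources used here do not say whether counting used strand, so reads of such overlapping pairs cannot be told apart.

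A few places in the genome carry the main observations, and their sequences are shown to place the values that follow. The first is the region where Gm10101 and the protein-coding gene Cgrrf1 start back to back on chromosome 14 (chr14:46831884-46832183, plus strand, the window of 250 bases before and 50 bases after the RefSeq start of Cgrrf1). Its capitals mark the 99 bases from the GENCODE M21 start of Gm10101, which runs to the left, to the GENCODE M21 start of Cgrrf1, which runs to the right and lies a few bases before the RefSeq start. The second is the start of 2310065F04Rik on chromosome 11 (chr11:67120031-67120330, minus strand), with the first 50 transcribed bases in capitals. Both windows are from RefSeq on GRCm38.p6.
Gm10101 and Cgrrf1 start region: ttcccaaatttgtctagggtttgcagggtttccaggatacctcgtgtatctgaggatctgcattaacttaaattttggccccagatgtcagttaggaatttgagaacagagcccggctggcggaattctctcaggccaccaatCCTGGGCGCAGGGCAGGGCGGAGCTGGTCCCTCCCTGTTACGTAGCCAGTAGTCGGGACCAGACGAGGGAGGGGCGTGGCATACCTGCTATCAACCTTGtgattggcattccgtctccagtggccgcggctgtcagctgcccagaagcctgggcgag
2310065F04Rik start region: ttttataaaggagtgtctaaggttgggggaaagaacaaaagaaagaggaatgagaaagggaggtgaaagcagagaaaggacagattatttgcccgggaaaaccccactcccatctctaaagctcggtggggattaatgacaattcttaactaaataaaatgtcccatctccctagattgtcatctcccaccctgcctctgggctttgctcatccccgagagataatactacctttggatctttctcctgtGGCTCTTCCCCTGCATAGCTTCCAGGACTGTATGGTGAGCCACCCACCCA

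The Cgrrf1 window holds 13 CpG pairs at 56.7% GC and the 2310065F04Rik window 3 CpG pairs at 46.7% GC, against medians of 7 pairs and 52.7% over all 32817 RefSeq windows. Motifs linked to muscle genes were searched on both strands of each window. The E-box CAGCTG, read by myogenic factors such as MyoD, occurs 1 time in the Cgrrf1 window, after both starts of Cgrrf1, and is in 16.3% of all windows. The other motifs searched were the MEF2-type motif (CTA, any 4 bases, TAG), which 3.69% of windows hold, and TATAAA, which 13.6% hold. The 2310065F04Rik window holds TATAAA 2 times, at its far end and overlapping each other on opposite strands, and none of the others, and the Cgrrf1 window holds none but the E-box. A match is a run of letters and not a shown binding site.

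The others concern microRNAs. Cyrano, listed as 1700020I14Rik in the table, carries a long and nearly complete match to miR-7, through which it brings about the decay of that microRNA in mouse. In its transcript of 8300 bases (GENCODE M21) the match lies at bases 2935 to 2959, with the paired bases in capitals: 13 bases and 8 bases pair, with 4 bases between them that do not. The microRNAs are from RefSeq, with the seed (bases 2 to 8) in capitals. E130102H24Rik on chromosome 4 hosts the hairpin of miR-101a within its span and on its strand. The seeds of the 3 microRNAs differ, and mature microRNAs were not measured in these libraries.
Cyrano site: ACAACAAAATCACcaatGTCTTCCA
mmu-miR-7a-5p: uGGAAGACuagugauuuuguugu
mmu-miR-101a-3p: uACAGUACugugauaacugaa
mmu-miR-101a-5p: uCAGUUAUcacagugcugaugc

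Few lincRNAs passed the test between genotypes. Gm10101 and Gm15676 rose and 2310065F04Rik fell in transgenic muscle, so that 3 of 75 lincRNAs (4%) passed an adjusted p of 0.05 in edgeR's quasi-likelihood test with Benjamini-Hochberg adjustment over all genes, against 5.33% of the 13338 genes tested. By direction, 2 of 75 were higher against 4.28% of all genes, and 1 of 75 was lower against 1.05% of all genes. With 1 or 2 genes behind each share, these are near the background. At an unadjusted p under 0.05 there were 11 lincRNAs (14.7%), 6 higher and 5 lower, against 18.1% of all genes. Transgenic and wild-type libraries did not overlap in 2 lincRNAs (2.67%), Gm10101 and E130102H24Rik, against 8.04% of all genes. By direction that is 1 higher, against 5.14% of all genes, and 1 lower, against 2.9% of all genes. DESeq2 called 4 of the 75, Neat1 being the addition, against 7.74% of all genes, and the authors' deposited table marks the same number, against 7.29% of all genes.

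The median log2 fold change over the 75 lincRNAs was -0.02, beside 0.003 over all genes tested. The middle of the distribution ran from -0.20 to 0.11 between its quartiles, 64 of 75 lay within 0.5 of 0, and 37 were above 0. Their standard errors were larger than usual, with a median of 0.23 on the log2 scale against 0.17 for all genes, and their levels were lower, with a median mean level of 3.72 CPM against 11.8 CPM for protein-coding genes held to the same summed count. Antisense genes in the table had 2 calls among 102 (1.96%), processed transcripts 5 among 99 with 2 higher and 3 lower (5.05%), and protein-coding genes 5.46% of 11746.

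**Figure D1:**
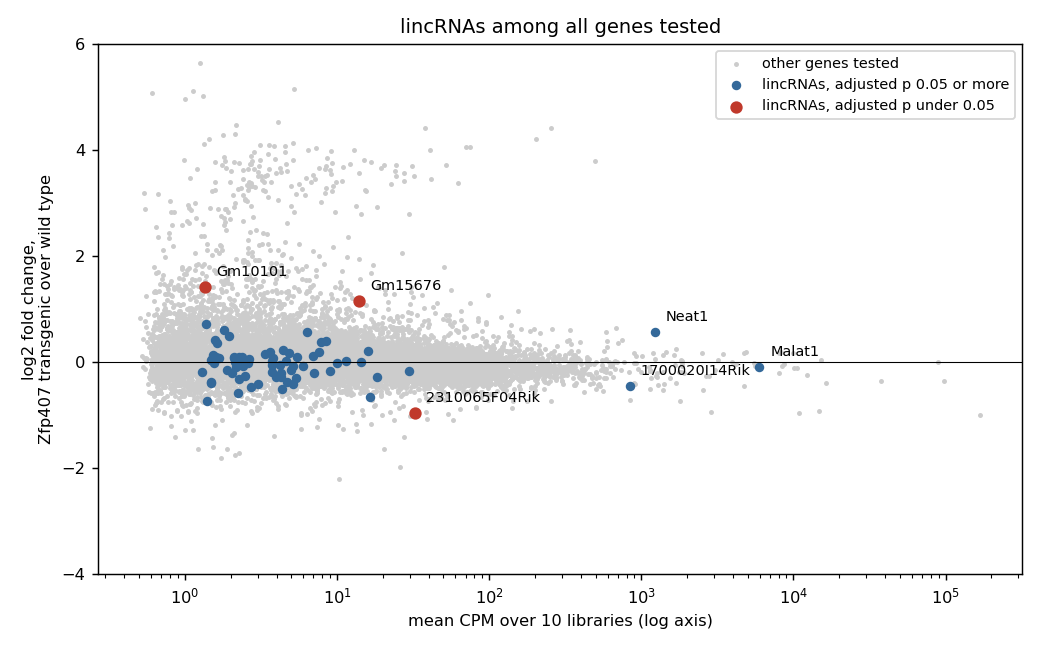
Log2 fold change, Zfp407 transgenic over wild type, against the mean CPM over 10 libraries (log axis) for each gene tested (grey) and for the 75 lincRNAs (blue, and red where the edgeR adjusted p is under 0.05). Most lincRNAs lie at 1 to 10 CPM within 0.5 of 0, and the 3 called ones are Gm10101 at 1.41, Gm15676 at 1.15 and 2310065F04Rik at -0.96.

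Gm10101 showed the clearest rise. It is a single exon block of 2919 bases on the minus strand of chromosome 14 (46829109 to 46832027) and no role is known for it. Its level was 2.17, 1.72, 1.52, 2.69 and 1.80 CPM in transgenic libraries 1 to 5, and 0.630, 0.593, 0.999, 0.651 and 0.794 CPM in wild-type libraries 1 to 5. Every transgenic library lay above every wild-type library. Raw counts were low, from 24 to 57 in transgenic and from 7 to 18 in wild-type libraries, with a sum of 239. With the wild-type counts in every library, Gm10101 would have missed the minimum summed count for the lincRNAs described here. Its inclusion is therefore not independent of its rise. C030014I23Rik, 5930412G12Rik and C030037D09Rik, also higher on average in transgenic muscle, would likewise have missed it with their wild-type counts in every library. So would 2310016D23Rik, which was lower, with its transgenic counts in every library. The shares of lincRNAs called, at an unadjusted p or without overlap above, and the pairs below, include such genes on that basis. The mean of Gm10101 was 1.98 ± 0.463 CPM in transgenic and 0.733 ± 0.167 CPM in wild-type muscle (SD, n = 5 each), a log2 fold change of 1.41 ± 0.24 (SE; adjusted p = 0.00484 by edgeR) or 2.66-fold. The call held with each single library left out, with an edgeR adjusted p from 0.00375 to 0.0226. With the hepatocyte markers as a covariate the estimate was 1.38 ± 0.41 (SE) and was no longer past the threshold (adjusted p = 0.172 by edgeR), in a fit that called 0.562% of all genes.

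The neighbour that shares its start region rose as well. Cgrrf1 encodes a RING finger protein tied to growth control, and its annotated start lies 98 bases from that of Gm10101 on the other strand. Its level was 26.7, 29.1, 34.2, 31.8 and 26.4 CPM in transgenic libraries 1 to 5, and 16.8, 13.6, 17.6, 20.6 and 17.4 CPM in wild-type libraries 1 to 5. The groups did not overlap. The log2 fold change was 0.78 ± 0.12 (SE; adjusted p = 0.00276 by edgeR), and 0.87 ± 0.22 (SE; adjusted p = 0.101 by edgeR) beside the hepatocyte covariate. Whether reads of the start region were split between the pair was not tested.

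2310065F04Rik, the linc-Myh gene, was lower in transgenic muscle. Its 6 exon blocks lie on the minus strand of chromosome 11 (67112461 to 67120080), between the myosin genes Myh3, 10170 bases away, and Myh2, which run on the plus strand. Its level was 21.6, 24.3, 24.05, 22.2 and 18.5 CPM in transgenic libraries 1 to 5, and 39.9, 23.1, 37.2, 77.6 and 37.5 CPM in wild-type libraries 1 to 5. The transgenic libraries lay close together, while wild-type library 4 was the highest of all and wild-type library 2 fell among the transgenic ones. The mean was 22.1 ± 2.35 CPM in transgenic and 43.1 ± 20.4 CPM in wild-type muscle (SD, n = 5 each), and the log2 fold change was -0.96 ± 0.25 (SE; adjusted p = 0.0398 by edgeR).

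This fall depended on which libraries were used. Without wild-type library 4 it was smaller, at -0.67 ± 0.16 (SE; adjusted p = 0.0441 by edgeR), and without wild-type library 2 it was -1.16 (adjusted p = 0.0152 by edgeR). With wild-type library 1, 3 or 5 left out, or any single transgenic library, the edgeR adjusted p ran from 0.0503 to 0.0861. Beside the hepatocyte covariate it was -0.84 ± 0.43 (SE; adjusted p = 0.444 by edgeR).

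The myosin genes of the same cluster did not pass the test. Myh4, the fast IIb heavy chain, averaged 33115 ± 3412 CPM in transgenic and 42358 ± 7256 CPM in wild-type libraries (SD, n = 5 each; fold change on the log2 scale -0.36 ± 0.17, SE; adjusted p = 0.280 by edgeR). Myh1, the fast IIx chain, had a log2 fold change of 0.17 ± 0.18 (SE). Myh2, the fast IIa chain, had -0.0005 ± 0.39, the embryonic chain Myh3 0.03 ± 0.50, the neonatal chain Myh8 -0.05 ± 0.25 and Myh13 -0.33 ± 0.31 (SE each). Genes of slow fibres did not pass either. Log2 fold changes were -0.44 ± 0.79 for Tnnt1, -0.999 ± 0.88 for Tnni1, -0.32 ± 0.73 for Myl2 and -0.01 ± 0.39 for Atp2a2 (SE each). Myh7, the slow heavy chain, had -0.44 ± 0.90 (SE) and varied widely within both groups. Its level was 52.7, 36.3, 16.0, 93.3 and 229.8 CPM in transgenic libraries 1 to 5, and 428, 40.7, 77.3, 7.29 and 28.4 CPM in wild-type libraries 1 to 5. The part of this spread in the fall of 2310065F04Rik was not tested.

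Gm15676 rose at the edge of the threshold. The table gives it gene ID ENSMUSG00000085583, and the annotation used here gives no position and no role for it. Its level was 11.8, 16.6, 31.1, 21.6 and 15.8 CPM in transgenic libraries 1 to 5, and 6.69, 4.57, 6.33, 14.2 and 11.6 CPM in wild-type libraries 1 to 5. Transgenic library 1 lay below wild-type library 4, so the groups overlapped. The mean was 19.4 ± 7.39 CPM in transgenic and 8.68 ± 4.05 CPM in wild-type muscle (SD, n = 5 each), and the log2 fold change was 1.15 ± 0.31 (SE; adjusted p = 0.0496 by edgeR). The call ended under other scalings and filters, with an edgeR adjusted p from 0.0506 to 0.0607. It was kept without wild-type library 4 or transgenic library 1, while each other single library left out gave an edgeR adjusted p from 0.0506 to 0.141. Beside the hepatocyte covariate the estimate was 1.17 ± 0.51 (SE; adjusted p = 0.381 by edgeR).

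**Figure D2:**
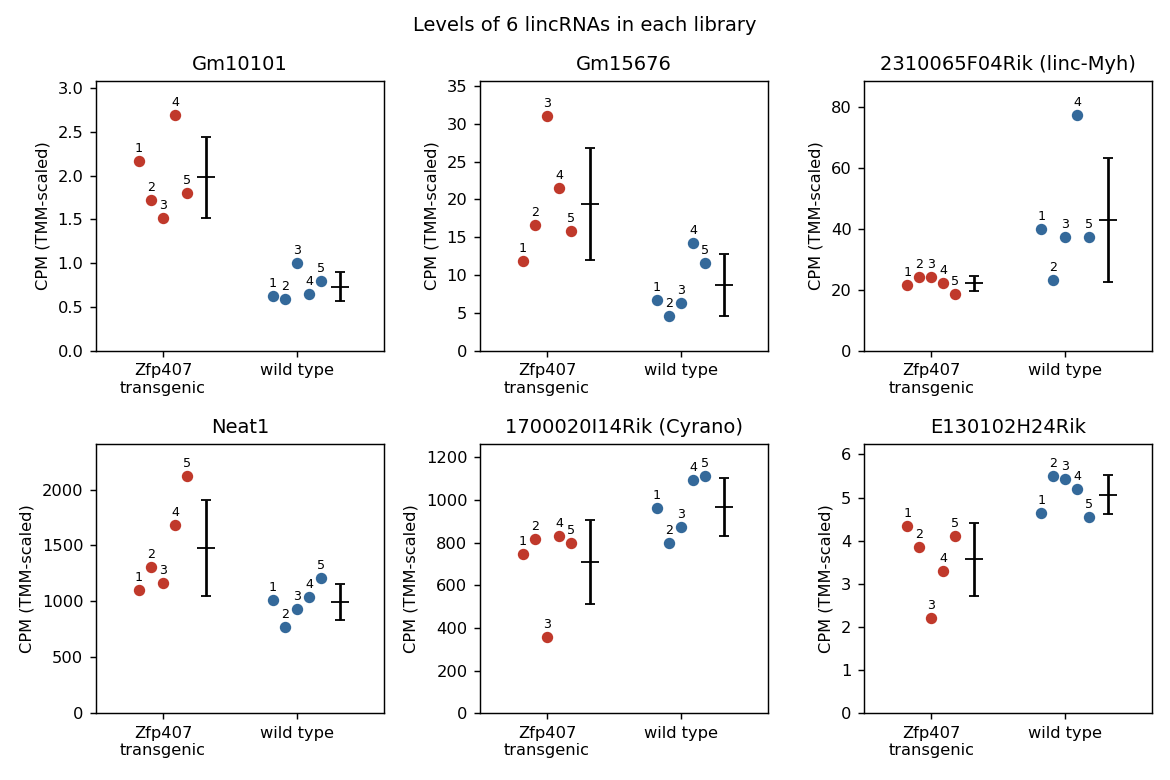
TMM-scaled CPM of 6 lincRNAs in each library, Zfp407 transgenic (red, left) and wild type (blue, right), with library numbers above the points and black bars for the mean and SD of 5 libraries. Transgenic and wild-type points are apart for Gm10101 and E130102H24Rik, and wild-type library 4 at 77.6 CPM stands above the others for 2310065F04Rik.

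A few RNAs took most of the lincRNA counts. Malat1, Neat1 and Cyrano together held 95.3% ± 1.37 of the lincRNA counts in transgenic and 95.4% ± 0.243 in wild-type libraries (SD, n = 5 each). Malat1 alone held 68.6% ± 5.43 in transgenic and 72.3% ± 3.34 in wild-type libraries. All 75 lincRNAs made up 0.918% ± 0.256 of all counts in transgenic libraries (range 0.484% to 1.11%) and 0.780% ± 0.108 in wild-type libraries (range 0.619% to 0.871%). The shares were 1.07% ± 0.281 in transgenic and 1.01% ± 0.0640 in wild-type libraries when 5 rows that resemble ribosomal RNA were taken out of the totals. Those rows held 14.2% of the counts in transgenic and 23.1% in wild-type libraries on average.

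Malat1, on chromosome 19 (5795690 to 5802672, minus strand), is an RNA of nuclear speckles, where splicing factors gather. Its level was 5556, 7049, 2798, 7091 and 6503 CPM in transgenic libraries 1 to 5, and 5277, 6347, 6398, 6796 and 5972 CPM in wild-type libraries 1 to 5. Transgenic library 3 was far below the rest, and the other libraries of both groups overlapped. The log2 fold change was -0.09 ± 0.22 (SE; adjusted p = 0.889 by edgeR), and without transgenic library 3 it was 0.087.

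Neat1, the scaffold of paraspeckles, lies next to it on chromosome 19 (5824708 to 5845478, minus strand). Its level was 1099, 1304, 1161, 1685 and 2122 CPM in transgenic libraries 1 to 5, and 1012, 773, 936, 1038 and 1208 CPM in wild-type libraries 1 to 5. Transgenic libraries 4 and 5 were the highest, while transgenic libraries 1 and 3 lay below wild-type library 5. The mean was 1474 ± 428 CPM in transgenic and 993 ± 158 CPM in wild-type muscle (SD, n = 5 each), a log2 fold change of 0.57 ± 0.19 (SE) that did not pass edgeR's test (adjusted p = 0.114). DESeq2 put the same comparison just past the threshold (log2 fold change 0.56, adjusted p = 0.0487), and so did the authors' deposited table (0.56, adjusted p = 0.0488).

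The 3 libraries with the most Neat1, transgenic libraries 5, 4 and 2, were also those with the most hepatocyte transcripts. The mean log2 CPM of the hepatocyte markers was 3.26, 4.04, 3.43, 4.76 and 6.71 in transgenic libraries 1 to 5, and 1.60, 1.85, 1.57, 2.11 and 2.44 in wild-type libraries 1 to 5. Transgenic libraries 4 and 5 held the highest Neat1 levels, so leaving them out lowers the fold change in any case. Without them the log2 fold change of Neat1 was 0.26 ± 0.17 (SE; adjusted p = 0.507 by edgeR). With the hepatocyte markers as a covariate it was -0.19 ± 0.22 (SE; adjusted p = 0.738 by edgeR). That covariate cannot be told apart from genotype in these libraries. None of the 16 genes of paraspeckle and nuclear speckle proteins passed, among them Nono, Sfpq and Pspc1, and their log2 fold changes ran from -0.29 to 0.10 with a median of -0.12.

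Cyrano (chromosome 2, 119594297 to 119607502, plus strand), whose miR-7 site is printed above, was lower on average in transgenic muscle without passing the test. Its level was 745, 816, 360, 829 and 798 CPM in transgenic libraries 1 to 5, and 963, 800, 871, 1093 and 1111 CPM in wild-type libraries 1 to 5. Transgenic library 3 stood far below the rest, and wild-type library 2 lay among the other transgenic libraries. The log2 fold change was -0.45 ± 0.20 (SE; adjusted p = 0.270 by edgeR), and -0.28 ± 0.11 (SE; adjusted p = 0.154 by edgeR) without transgenic library 3. Ftx, a nuclear RNA made near Xist on the X chromosome, had a log2 fold change of 0.19 ± 0.19 (SE). Of the list set up for nuclear RNAs, which also held Cyrano, 6 genes were tested, Tug1 and Firre among them, and none passed in either direction. Where Cyrano lies in the cell was not measured here.

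Compared per kilobase of exon, the order of levels was steep at the top and flat below. Malat1 averaged 831 ± 256 CPM per kb in transgenic and 882 ± 82.0 CPM per kb in wild-type muscle (SD, n = 5 each) and lay above all others in all 10 libraries. Cyrano followed at 85.5 ± 23.8 CPM per kb in transgenic and 117 ± 16.3 CPM per kb in wild-type muscle, and Neat1 at 71.0 ± 20.6 CPM per kb in transgenic and 47.8 ± 7.62 CPM per kb in wild-type muscle. Cyrano was above Neat1 in 8 of 10 libraries, and their ranges overlapped. Gm12319, a short RNA of 357 exon bases, came next at 32.3 ± 9.62 CPM per kb in transgenic and 31.7 ± 4.40 CPM per kb in wild-type muscle, below Neat1 in all 10 libraries and above the gene after it, Gm12840, without overlap.

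From Gm12840 down, neighbours in the order overlapped pair by pair through 2310075C17Rik, 2310065F04Rik, B230312C02Rik, AW112010 and Epb4.1l4aos. The highest level per kb was 2420 times the lowest among the 72 genes with a length. By CPM, 11 of the 75 averaged above 10 CPM and 51 below 5 CPM.

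**Figure D3:**
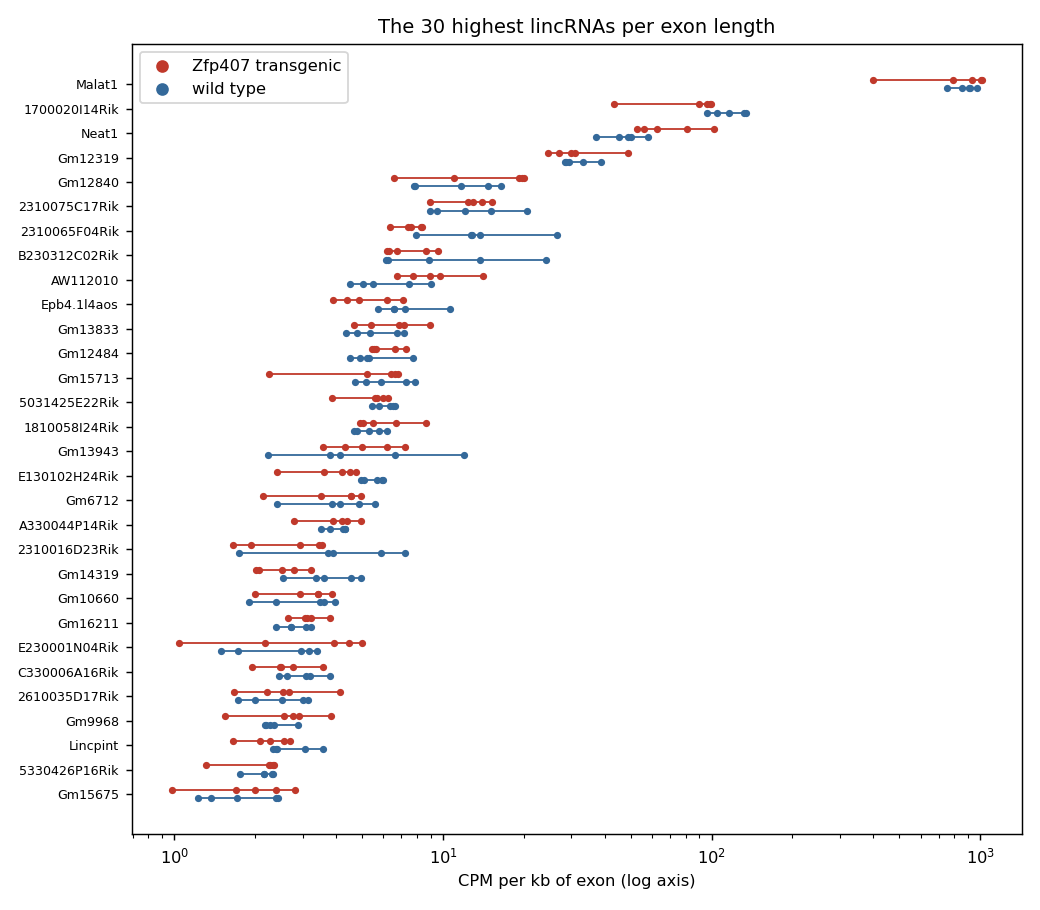
CPM per kb of exon (log axis) of the 30 highest lincRNAs, with 1 point a library and a line over the range of 5 Zfp407 transgenic (red, above) and 5 wild-type libraries (blue, below). Malat1 is alone at the top, Cyrano (1700020I14Rik) and Neat1 overlap, and from Gm12840 to Gm12484 the ranges of neighbours overlap.

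Of the other abundant lincRNAs none passed. AW112010, induced by interferon in mouse immune cells, where a short protein is made from it, averaged 7.59 ± 2.28 CPM in transgenic and 5.07 ± 1.52 CPM in wild-type libraries (SD, n = 5 each; fold change on the log2 scale 0.57 ± 0.23, SE; adjusted p = 0.209 by edgeR). Its highest value, 11.3 CPM, was in transgenic library 5, and beside the hepatocyte covariate its log2 fold change was 0.09 ± 0.35 (SE). Gm12319 had 0.02 ± 0.18, Gm12840 0.40 ± 0.30 and 2310075C17Rik -0.05 ± 0.23 on the log2 fold change scale (SE each), and no role of these 3 is known.

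No host of small RNAs passed the test. The 6 small nucleolar RNA hosts tested had log2 fold changes from -0.47 to 0.28. Epb4.1l4aos had a log2 fold change of -0.47 ± 0.23, Snhg12 -0.27 ± 0.28 and Snhg20 0.09 ± 0.21 (SE each). In Snhg12 the value of wild-type library 2 was 8.72 CPM, while the other 4 wild-type libraries held 2.41 to 4.65 CPM and the transgenic libraries 3.07 to 4.56 CPM. Without wild-type library 2 the log2 fold change of Snhg12 was 0.030. Of the 4 microRNA hosts tested, Mir17hg, which carries the miR-17 to miR-92 cluster, had 0.07 ± 0.21 (SE).

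E130102H24Rik, the host of miR-101a, had its 5 lowest values in the transgenic libraries. Its level was 4.34, 3.87, 2.21, 3.31 and 4.12 CPM in transgenic libraries 1 to 5, and 4.65, 5.51, 5.44, 5.21 and 4.55 CPM in wild-type libraries 1 to 5. The groups did not overlap, though the highest transgenic and the lowest wild-type library were close. The log2 fold change of -0.50 ± 0.18 (SE) did not pass edgeR's test (adjusted p = 0.146). Its exon blocks lie on the minus strand of chromosome 4 (101346531 to 101356735), and 0610043K17Rik, on the other strand, overlaps its span and had -0.63 ± 0.30 (SE; adjusted p = 0.297 by edgeR). The nearest protein-coding gene of the count table, Ak4, a mitochondrial adenylate kinase 62542 bases away, rose. It averaged 11.3 ± 2.15 CPM in transgenic and 2.63 ± 0.505 CPM in wild-type libraries (SD, n = 5 each; fold change on the log2 scale 2.09 ± 0.18, SE; adjusted p = 2.42e-05 by edgeR).

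Beside Neat1 and E130102H24Rik, 3 lincRNAs with no role known here had the smallest p-values among those not called. C030014I23Rik averaged 1.71 ± 0.351 CPM in transgenic and 1.03 ± 0.215 CPM in wild-type libraries (SD, n = 5 each), a log2 fold change of 0.72 ± 0.23 (SE; adjusted p = 0.0948 by edgeR). Its raw counts were 9 to 19 in wild-type libraries, and it reached the minimum summed count only through the transgenic ones. Gm16576 averaged 4.37 ± 0.345 CPM in transgenic and 5.84 ± 0.947 CPM in wild-type libraries, a log2 fold change of -0.41 ± 0.15 (SE; adjusted p = 0.141 by edgeR). Gm14319 averaged 1.77 ± 0.358 CPM in transgenic and 2.67 ± 0.673 CPM in wild-type libraries, a log2 fold change of -0.58 ± 0.23 (SE; adjusted p = 0.187 by edgeR). In these 3 lincRNAs the groups overlapped by 1 or more libraries.

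Some genes listed as lincRNA encode a short protein. 5430416O09Rik, which encodes the SPAR polypeptide that restrains mTORC1 at the lysosome, averaged 4.70 ± 0.839 CPM in transgenic and 4.60 ± 0.518 CPM in wild-type libraries (SD, n = 5 each), and its log2 fold change was 0.03 ± 0.16 (SE; adjusted p = 0.952 by edgeR). The list of such genes had 3 tested and none called, and Mrln, which encodes the calcium pump inhibitor myoregulin and is a processed transcript in the table, had -0.64 ± 0.21 (SE; adjusted p = 0.0984 by edgeR). Of 2 imprinted noncoding genes tested, neither of them among the 75, Nctc1 fell, with a log2 fold change of -0.49 ± 0.11 (SE; adjusted p = 0.0173 by edgeR). Some lincRNAs were named for their known roles after their values were seen. 5330426P16Rik, listed as Dubr or Dum by RefSeq and known in mouse to promote myoblast differentiation, had -0.03 ± 0.16, 1810058I24Rik, which RefSeq now lists as protein-coding and as Stmp1, a mitochondrial micropeptide gene, had 0.21 ± 0.16, and Lincpint, a p53-induced RNA, had -0.29 ± 0.16 as log2 fold changes (SE each).

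Cgrrf1 was the only neighbour called among the genes that start back to back with a lincRNA. In 9 of the 72 lincRNAs the start lay within 2000 bases of the start of the nearest protein-coding gene of the count table, on the other strand. Of these partners 8 had enough counts to be tested. Signs were the same in 4 of 8 pairs: Gm10101 and Cgrrf1, Gm16576 and Sun2 (-0.41 and -0.08), 5031425E22Rik and Kmt2e (-0.17 and -0.16), and AI480526 and Setd1b (-0.06 and -0.06). They were opposite in the others, as for 4833418N02Rik at -0.18 beside Ttc7 at 0.60 ± 0.17 (SE; adjusted p = 0.0634 by edgeR). Neighbours were sought only among the protein-coding genes of the count table, so a nearer gene outside it would be missed. Some lay far away, up to 4135092 bases for 1700110I01Rik. Over the 62 distinct nearest protein-coding genes of that table that were tested, 4 were called (6.45%), namely Cgrrf1, Ak4, Adgrl2 and Etaa1, against 5.33% of all genes. Adgrl2 lay 231132 bases and Etaa1 142111 bases from the lincRNA.

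**Figure D4:**
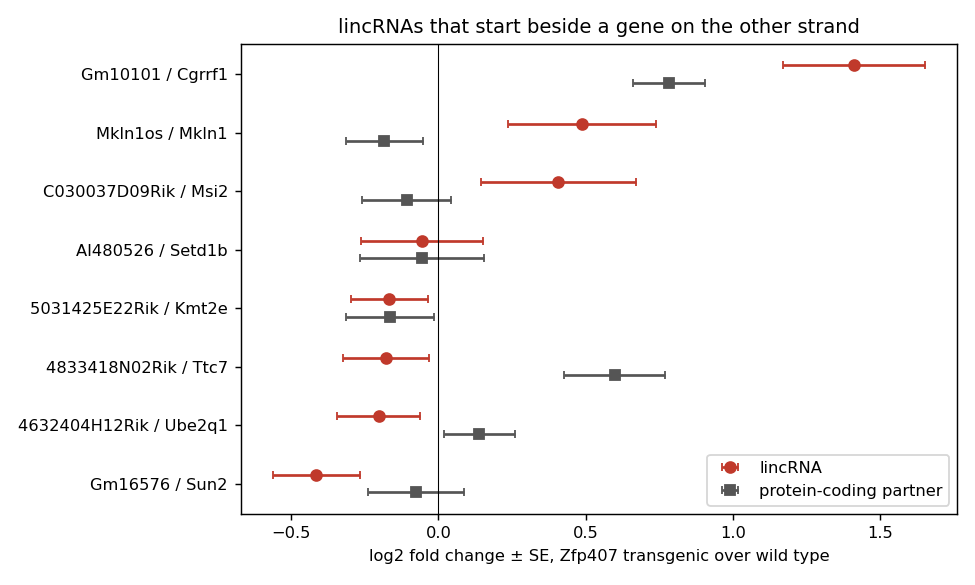
Log2 fold change ± SE, Zfp407 transgenic over wild type, of 8 lincRNAs (red circles) and of the protein-coding gene that starts beside each on the other strand (grey squares). Both members lie clearly above 0 only for Gm10101 at 1.41 and Cgrrf1 at 0.78.

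Most genes tested, the lincRNAs included, had a larger SD among transgenic than among wild-type libraries. The median SD of log2 CPM over the lincRNAs was 0.37 in transgenic and 0.27 in wild-type libraries, and the median over all genes is not given here. The SD was larger in transgenic libraries for 51 of 75 lincRNAs, near the share of 62.5% over all genes tested. Without transgenic library 3 that count was 35 of 75, and the share over all genes was not computed for that setting. Transgenic library 3 was the lowest of the 10 libraries for 35 of 75 lincRNAs (46.7%), against 27% of all genes tested. Its median difference from the mean of the other transgenic libraries was -0.41 on the log2 scale over the 75 lincRNAs and -0.03 over all genes tested.

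The low values in that library included Malat1, Cyrano, Gm11033, Ino80dos and BC002059, but not Gm15676 or Gm12319, which were highest there, at 31.1 and 17.5 CPM. Ino80dos and BC002059 were chosen after their values were seen. With transgenic library 3 left out the median log2 fold change over the 75 lincRNAs was 0.06, beside -0.004 over all genes. The library labels give no batch that could be set beside it.

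The widest spreads within a group often came with 1 high or low library. B230312C02Rik, on chromosome 2 next to the muscle microRNA genes Mir1a-1 and Mir133a-2, stood at 41.3 CPM in wild-type library 4 and at 10.4 to 23.4 CPM in the other wild-type libraries, while transgenic libraries held 10.5 to 16.4 CPM (log2 fold change -0.66 ± 0.33, SE; adjusted p = 0.320 by edgeR). Without wild-type library 4 its log2 fold change was -0.25 (adjusted p = 0.664 by edgeR). Gm13943 was highest in the same library, at 4.10 CPM, with -0.14 ± 0.38 (SE), and 0.28 without it. 5930412G12Rik was highest in wild-type library 1, at 3.62 CPM, with 0.36 ± 0.41 (SE). Without that library its log2 fold change was 1.003 (adjusted p = 0.0557 by edgeR). E230001N04Rik ran from 2.78 to 13.4 CPM within transgenic libraries and from 3.996 to 9.11 CPM within wild type, with 0.38 ± 0.37 (SE), and from 0.19 to 0.61 with 1 library left out at a time. These are the genes with the largest SD within a group, together with Gm11033.

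**Figure D5:**
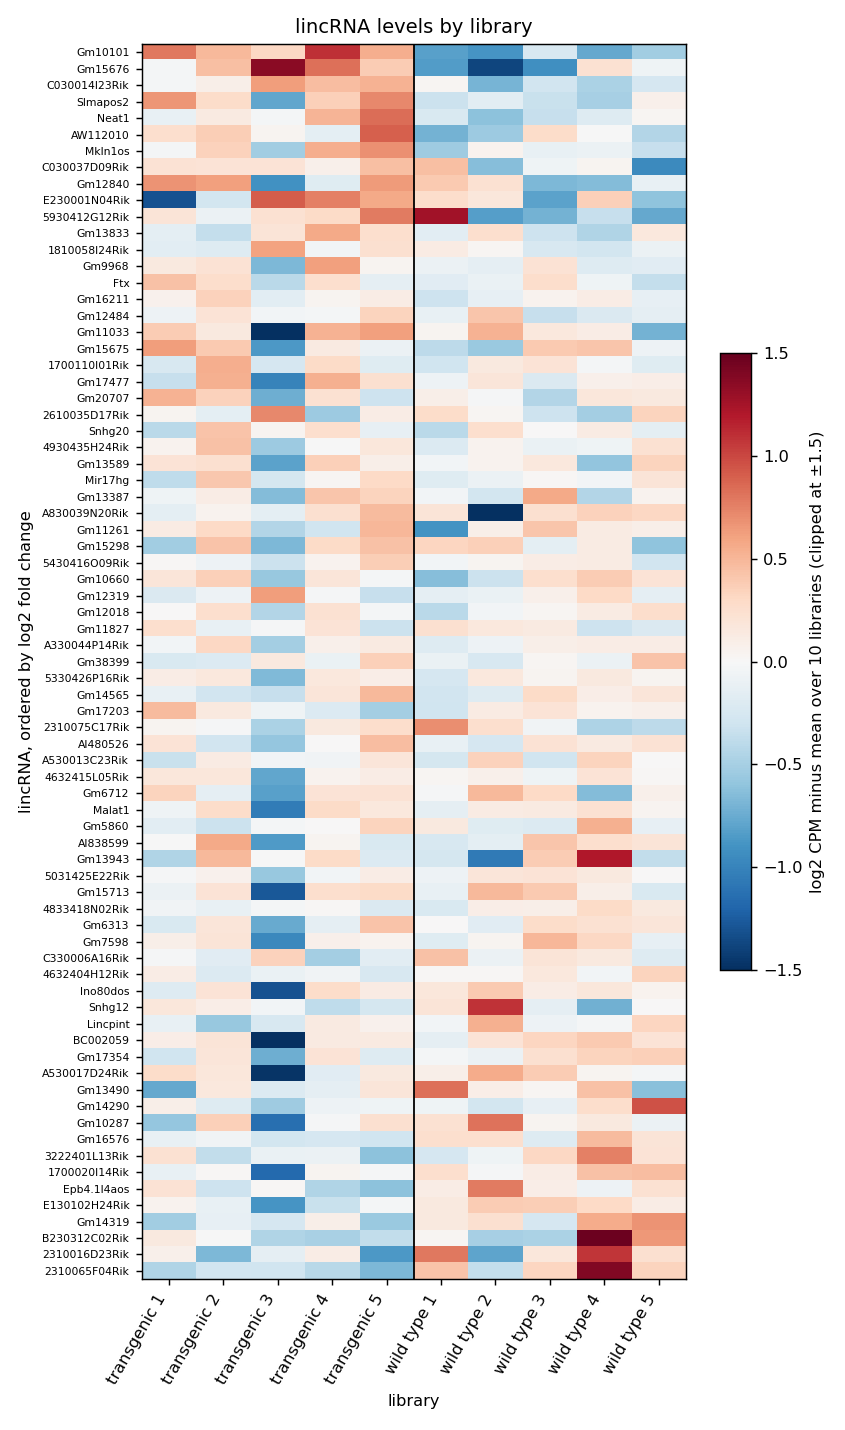
Log2 CPM minus the mean over 10 libraries (clipped at ±1.5, red above and blue below the mean) for the 75 lincRNAs, ordered by log2 fold change, in 5 Zfp407 transgenic libraries (left) and 5 wild-type libraries (right). The column of transgenic library 3 holds the lowest value of the row for 35 of 75 lincRNAs, and wild-type library 4 stands out at the bottom in 2310065F04Rik and B230312C02Rik.

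The 50 lincRNAs not chosen by the naming rule had mean levels from 1.29 to 29.8 CPM. Their log2 fold changes ran from -0.74 to 0.61, with 23 above 0 and 27 below, and their edgeR adjusted p from 0.265 to 0.991. None of them passed in either direction.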

How the data were processed

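Counts of reads per gene are whole numbers, not normalized, in the deposited table. The authors' deposited log2 fold changes, standard errors, mean signal, Wald statistics (a score) and p-values stand beside them and were used only where named. The submitters' processing notes name build GRCm38.p4 and, with no roles, DESeq2 1.10, HTSeq 0.6.1, SAMtools 1.2, Bowtie2 2.2.6 and TopHat2 2.1. The authors' adjusted p-values correspond to more genes than the 15883 rows, so the table is held in part. Exon lengths and positions are from GENCODE M21 (GRCm38), and sequences from RefSeq (GRCm38.p6) and GENCODE.

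After filterByExpr and TMM scaling, edgeR 4.0.16 in R 4.3.3 (glmQLFit, glmQLFTest) compared 5 transgenic with 5 wild-type libraries, with no covariate and Benjamini-Hochberg adjustment over the 13338 of 15883 genes tested. The standard error of a fold change was derived from its F statistic. Log2 CPM used a prior count of 2. No pair of libraries within a group (20 pairs) agreed within sampling noise (lowest chi-square divided by its degrees of freedom 17.5).

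Named genes are those called, the 10 highest per kb, list members that the table marks as lincRNA, the 5 uncalled with the smallest p, the 5 with the largest SD within a group, and the neighbours of called genes. The members and lists were chosen with earlier results of these data known. On simulated counts of 13338 genes, 32% of genes changed 1.5-fold and 74% of genes changed 2-fold were recovered, with 4 false calls. The changed genes were drawn from all genes tested. These shares are not rates for the lincRNAs, whose levels were lower and standard errors larger. Alternatives covered size factors, DESeq2 1.42.0, filters, thresholds, libraries left out, ribosomal-like rows left out, and a hepatocyte covariate.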

Additional observations from a re-analysis of the deposited data

Results flagged for a closer look

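In 50 groups of 5 libraries, those of the 25 lincRNAs named by rule, 4 had 1 library far from the others by Dixon's criterion (chance marks about 1 in 20 groups of genes not chosen for their spread). Gm11033 and 5930412G12Rik were named for their large SD within a group, so the count of 4 cannot be set against that rate. Malat1 stood at 2798 CPM in transgenic library 3, while the other transgenic libraries held 5556 to 7091 CPM. Cyrano (1700020I14Rik) stood at 360 CPM in transgenic library 3 and at 745 to 829 CPM in the others. Gm11033 stood at 0.316 CPM in transgenic library 3 and at 1.54 to 2.19 CPM in the others. 5930412G12Rik stood at 3.62 CPM in wild-type library 1 while the other wild-type libraries held 0.762 to 1.11 CPM.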

How the results depend on the processing

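The counts of called lincRNAs are small, so 1 gene moves them. Against 2 higher and 1 lower, 1 was called higher with DESeq2 size factors, upper quartile factors, no filter, a mean count of at least 20, ribosomal-like rows left out, an adjusted p under 0.01 or a summed count of at least 500, and 4 at a summed count of at least 100 (109 genes). With an adjusted p under 0.01 or a fold of at least 2, 0 were called lower. Beside the hepatocyte covariate 0 were higher and 0 lower by edgeR, with 3 at an unadjusted p under 0.05 (11 by DESeq2 with no covariate, where 4 passed adjustment). The groups do not overlap in that covariate, so it cannot be told apart from genotype. Without transgenic libraries 4 and 5, 1 was higher and 0 lower, and without transgenic libraries 1 and 2, 0 were lower. Leaving out single libraries gave 1 to 2 higher and 0 to 1 lower. Without ribosomal-like rows the lincRNA share in wild type was 1.01%. No paired analysis was possible because the numbers 1 to 5 that both groups carry in the count table are not tied to mice or batches, and the sample numbers in the labels differ between the groups.

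Direction held in all 3 called lincRNAs under each alternative run. Of 500 values of named lincRNAs, 440 kept direction and side of the threshold, and 31 turned, each in a lincRNA that was not called. Beside the hepatocyte covariate the log2 fold changes that turned were Neat1 -0.19, Epb4.1l4aos 0.061, Snhg12 0.083, Mir17hg -0.35, 5430416O09Rik -0.30, Gm11033 -0.45 and E230001N04Rik -0.066. Without ribosomal-like rows Gm12319 was -0.0059 and 5430416O09Rik -0.0027, without transgenic libraries 1 and 2 Ftx was -0.0026, and without transgenic libraries 4 and 5 Mir17hg was -0.015, 5430416O09Rik -0.12 and Gm11033 -0.22. Leaving out single libraries, Malat1 ran from -0.18 to 0.087, Gm12319 from -0.17 to 0.10, 2310075C17Rik from -0.19 to 0.12, Snhg12 from -0.47 to 0.030, Snhg20 from -0.028 to 0.19, Mir17hg from -0.047 to 0.16, 5430416O09Rik from -0.072 to 0.10, Gm11033 from -0.029 to 0.38 and Gm13943 from -0.38 to 0.28. The cause was not tested. Depth limits the weakest genes, as 51 of 75 averaged under 5 CPM.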

Other observations

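Below the summed count of 200, 2 lincRNAs were called higher in transgenic muscle, B230317F23Rik with a log2 fold change of 1.39 (edgeR adjusted p = 0.0106) and D630024D03Rik with 1.99 (edgeR adjusted p = 0.0174). They were singled out after their values were seen.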
